A study of Mus musculus with 15 samples.

Results

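AP-1 and NFAT are the transcription factor families that answer T cell receptor signals first, and 10 of their genes were followed by RNA sequencing in 15 libraries of mouse CD8+ T cells. The genes were Fos, Fosb, Fosl2, Jun, Junb, Jund, Batf, Nfatc1, Nfatc2 and Nfatc3. They were taken by name and not by level from the 55536 genes of the count table that had an annotation entry, and all 10 passed the filter on low counts that left 17366 genes for testing. The cells of every group carried the OT-I transgene, a rearranged receptor for an ovalbumin peptide, on a C57BL/6J background, and the study's methods describe the OT-I mice as deficient in Rag1 or Rag2. Naive libraries (n = 5) came from untreated OT-I mice whose cells had not been transferred. Ag libraries (n = 5) came from OT-I cells moved into wild-type C57BL/6J recipients, which were then given the SIINFEKL peptide and a rat IgG control. Ag+Costim recipients (n = 5) were given the peptide with agonist antibodies to OX40 (CD134) and 41BB (CD137), receptors that costimulate T cells. The transferred cells were taken from spleen and lymph nodes and sorted as CD8+ CD45.1+ Vα2+ Vβ5+, which separates them from the T cells that a wild-type recipient still has. The labels give collection at 4 days and the methods a slightly shorter time from stimulation, so no library holds the first hours of the response, when AP-1 genes are classically induced. Naive cells differed from the other groups in transfer and antibody as well as in antigen, and these cannot be told apart. The labels gave no age for the mice.

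AP-1 is a dimer of basic leucine zipper proteins. FOS family proteins cannot pair with themselves and need a JUN family partner, whereas BATF pairs with JUN proteins and binds composite DNA elements together with IRF4 or IRF8. NFAT proteins wait in the cytoplasm in phosphorylated form, enter the nucleus once the phosphatase calcineurin removes those phosphates, and bind many cytokine promoters side by side with AP-1. In T cells that see antigen without costimulation, NFAT acting with little AP-1 is known as a route to anergy, and BATF is known for its part in the differentiation of effector CD8+ T cells.

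Totals ranged from 4865952 to 25280667 counts per library, and levels are given as CPM, the counts of a gene scaled to the same total of tested genes in each library after TMM scaling. The 6 CD8+ T cell marker genes, which include Cd3d, Cd3e, Cd3g and Trac, summed to between 3926 and 7573 CPM. Of the CD8 genes themselves, Cd8a was at least 439 CPM and Cd8b1 at least 1119 CPM in every library. Cd4 was at most 4.79 CPM in any library, but Zbtb7b, another gene of the CD4+ T cell list, reached 19.5 CPM in Ag. Markers of other cells varied: 9 myeloid markers summed to 1041 CPM in Naive 5 and to at most 219 elsewhere, 6 erythroid markers to 1311 CPM in Ag 3 and to at most 152 elsewhere, and the B cell gene Cd79a ranged from 1.13 to 106 CPM in Ag and was at most 5.21 in the other groups. Another B cell gene, Cd79b, was at 14.8 to 25.3 CPM in Naive, 12.6 to 119 in Ag and 9.15 to 18.0 in Ag+Costim. All 7 B cell markers, with Ighm the largest part, summed to 572 to 974, 590 to 1341 and 490 to 730 CPM in these groups. Ag 2 and Ag 5 had the lowest recorded input amounts (1.4 and 1.8, with no unit given, against 7 to 10 elsewhere). They had 21705 and 20949 genes with a count, against 31845 to 44408 in the other Ag libraries. The Ag+Costim libraries, all at an input of 10, had 23891 to 25410 such genes, and the Naive libraries 30152 to 33853. Ag 2 and Ag 5 thus had the fewest such genes of all libraries, followed by the Ag+Costim libraries, and the part of input in these numbers was not tested. Ag 3 had the most such genes and the lowest total of counts. The Ag and Naive libraries ran on separate lanes (2 and 3), and Ag+Costim was split between both lanes.

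The sequences just upstream of Fos and Batf are shown because these were the AP-1 genes whose levels fell and rose in the tests described below, and because they lie 209 kb apart on the same strand of chromosome 12. Both are RefSeq sequences on GRCm38.p6, written 5′ to 3′ on the plus strand. For Fos, the 250 bases that end at the transcript start (chr12:85473640-85473889) are given with the TATAAA box in capitals. For Batf, the 199 bases that end just before the annotated gene start (chr12:85686470-85686668) are given, and capitals mark TTTCC, the reverse strand of the NFAT core GGAAA.
Fos: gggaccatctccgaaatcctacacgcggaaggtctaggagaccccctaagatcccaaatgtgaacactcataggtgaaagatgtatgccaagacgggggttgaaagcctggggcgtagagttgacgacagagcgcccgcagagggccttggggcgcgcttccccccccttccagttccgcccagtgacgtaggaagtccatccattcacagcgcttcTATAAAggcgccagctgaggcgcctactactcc
Batf: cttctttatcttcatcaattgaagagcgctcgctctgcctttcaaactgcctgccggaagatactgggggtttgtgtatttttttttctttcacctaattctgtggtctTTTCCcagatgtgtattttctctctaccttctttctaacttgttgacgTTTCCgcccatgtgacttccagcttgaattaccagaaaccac

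The TATAAA box of Fos began 33 bases before the end of its window, and the GGAAA matches of Batf began 90 and 42 bases before the end of its window. RefSeq windows of 250 bases upstream of a start were matched for 9 members, 11 windows in all, and both strands were searched. TATAAA is found in 12.4% of the 32851 mouse windows of that length and GGAAA in 55.6%, so a match to either is common. The AP-1 letters TGACTCA or TGAGTCA (4.46% of windows), the cyclic AMP element TGACGTCA (1.55%) and the CArG box bound by SRF (1.47%) matched in none of the 11 windows. A match or its absence describes these letters in this window only.

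Per kilobase of exon, Junb, Jund and Batf held the highest mean levels in every group, and the FOS genes and Jun the lowest. In Naive the order of mean levels was Junb at 57.6 CPM per kb, Jund at 52.7, Batf at 45.2, Nfatc1 at 30.0, Nfatc3 at 24.5, Nfatc2 at 5.70, Fos at 2.21, Jun at 1.41, Fosl2 at 0.527 and Fosb at 0.134. Neighbours at the top were not separated, since Junb was above Jund in 3 of 5 Naive libraries and Jund above Batf in 3 of 5. Batf moved to the head of the order in Ag (88.0 ± 33.0 CPM per kb, SD) and in Ag+Costim (105 ± 7.08), where it was above Junb in 5 of 5 libraries of each group. Fos fell from rank 7 in Naive to rank 8 in Ag and rank 9 in Ag+Costim, although Fos and Fosl2, next to each other in that last order, kept their mean order in only 3 of 5 libraries.

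**Figure D1:**
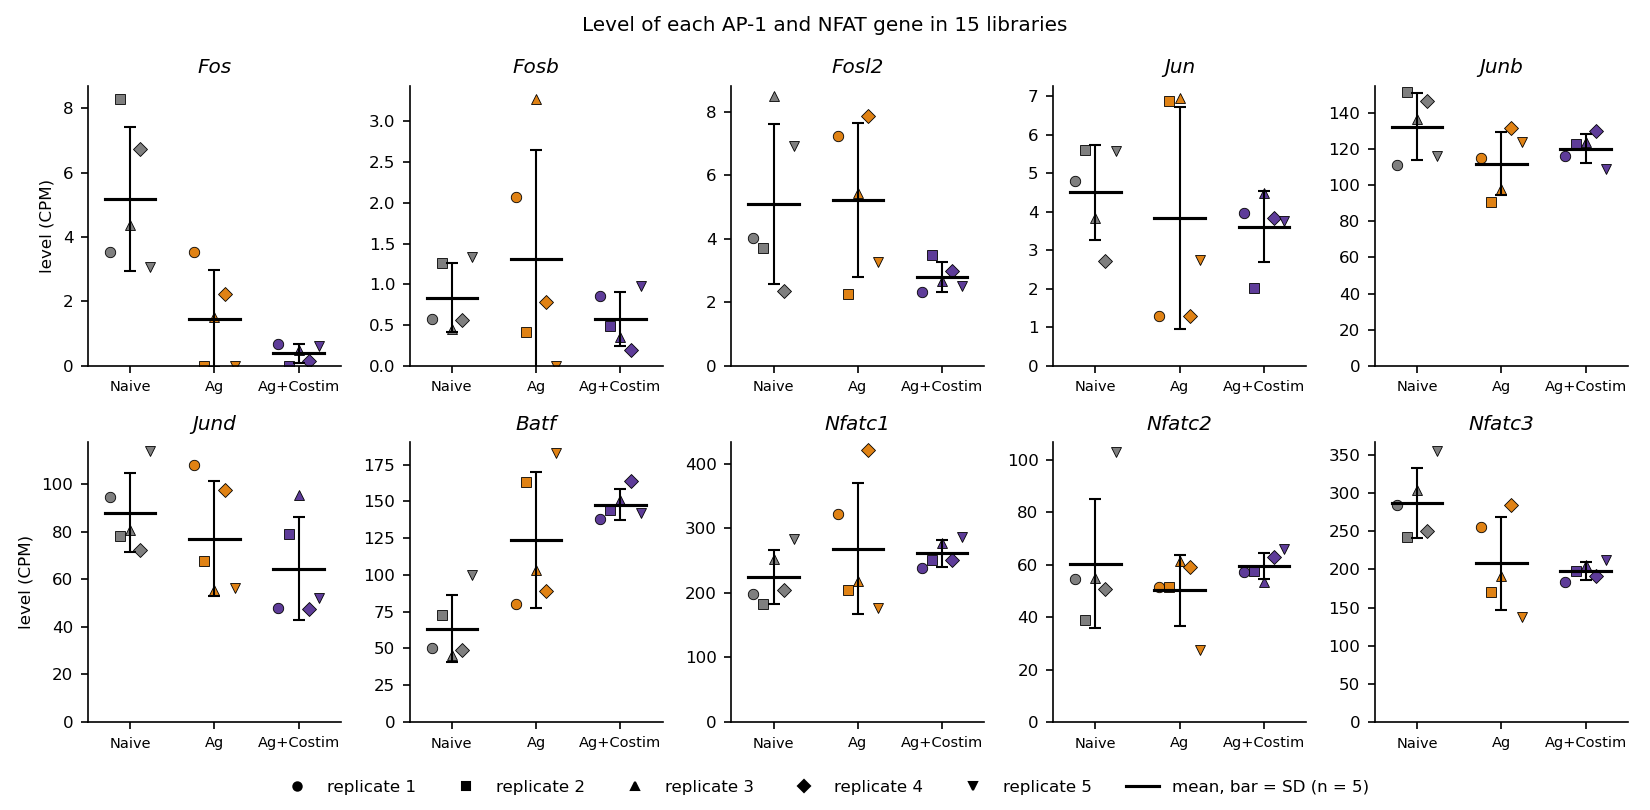
Level in CPM (y axis, from 0) of the 10 AP-1 and NFAT genes in the 5 libraries of each group (x axis). Points are libraries with a shape per replicate number, and lines and bars are the mean and SD. Batf in Ag+Costim lies between 138 and 164 CPM, above all Naive libraries, while Fos in Ag+Costim stays at or under 0.663 CPM.

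Few of the 10 genes were called by edgeR on all 15 libraries. In Ag against Naive, Batf was the only member called by edgeR's quasi-likelihood test at a false discovery rate (FDR) under 0.05, where 6.71% of all genes were called. Unadjusted two-sided p-values of edgeR were under 0.05 for 2 members, Batf and Nfatc3, and for 4980 of the 17366 genes tested. For Ag+Costim against Ag, edgeR called 0 members and 0.0346% of all genes, and DESeq2 called 0 members and 14.6% of all genes. By edgeR, 1 member (Fosl2) had an unadjusted p under 0.05, as did 4647 of the 17366 genes. The count of members was not the same under all settings, since voom with quality weights called 7 members (and 64.5% of all genes), and edgeR without the low-input libraries Ag 2 and Ag 5 called 4 (and 50.5%). Batf was higher in Ag+Costim than in Naive, and Fos and Nfatc3 were lower, so 3 of 10 members were called beside 44.7% of all genes. The median log2 fold change of the members was -0.21, -0.07 and -0.38 in the 3 comparisons, beside 0.08, -0.10 and -0.08 for all genes tested.

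CPM of the 2 groups did not overlap for 0 members in Ag against Naive (3.85% of all genes), for 0 in Ag+Costim against Ag (6.33%) and for 3 in Ag+Costim against Naive (45.0%). The last were the 3 called genes. Each pair of comparisons shares a group of libraries, so their values are not independent. In bulk RNA a lower level cannot be told apart from fewer cells that make the transcript, and p-values measure the spread between libraries of a group.

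**Figure D2:**
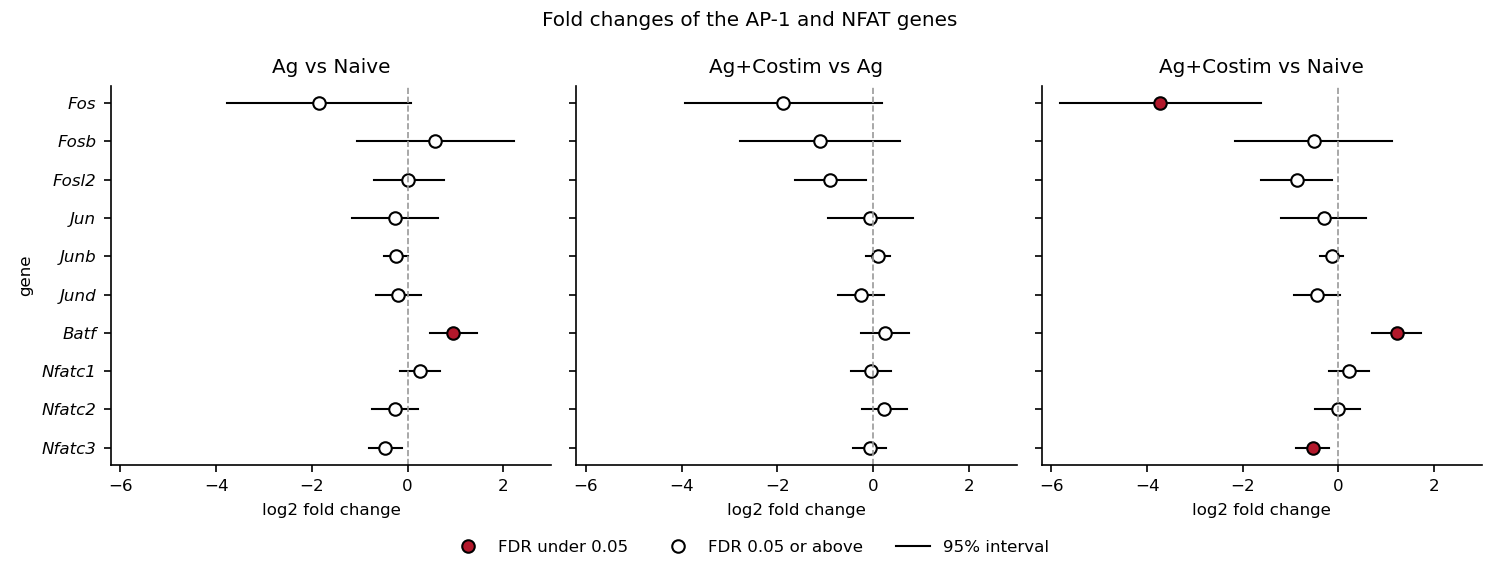
Log2 fold change (x axis) of the 10 genes (y axis) in each of the 3 comparisons, with approximate 95% intervals as lines; filled points passed an FDR under 0.05. Batf is filled in both comparisons with Naive, Fos and Nfatc3 only in Ag+Costim against Naive, and no point is filled in Ag+Costim against Ag.

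Fos, the founding FOS family gene and a classic immediate early gene, was the member that differed most in size. Naive libraries 1 to 5 held 3.52, 8.28, 4.36, 6.74 and 3.06 CPM of Fos. Ag libraries held 3.53, 0, 1.52, 2.22 and 0 CPM, and Ag+Costim libraries 0.663, 0, 0.492, 0.130 and 0.626 CPM. All Ag+Costim libraries were thus below all Naive libraries, whereas Ag overlapped both groups. These levels rest on few reads, with 420 counts over the Naive group and 79 and 28 over Ag and Ag+Costim. Where Fos had 0 counts, a level of up to 0.207 CPM in Ag 2, 0.188 in Ag 5 and 0.244 in Ag+Costim 2 is allowed by counting error alone. Fos fell by 3.72 on the log2 scale in Ag+Costim against Naive (SE 1.08, 95% interval -5.83 to -1.61, edgeR FDR = 0.0176). The fold change in Ag against Naive was -1.85 (SE 0.98, FDR = 0.221) and in Ag+Costim against Ag -1.88 (SE 1.05, FDR = 0.264), and neither passed the test. Without Ag 2 and Ag 5, the Ag libraries with 0 counts, the difference between Ag+Costim and Ag was -2.52 and was called (FDR = 0.00621), as it was by voom (-2.84, FDR = 0.0175). Leaving out the libraries with 0 counts raises the Ag mean by itself. That fit was also chosen after seeing the data, so its call is no separate support. Within lane 3, which held Ag+Costim 4 and 5 and the Naive libraries, the difference from Naive was -3.76 (FDR = 0.0232). With the lane as a term it was -3.76 as well, with FDR = 0.112, so the call was lost there.

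Fosb, a close relative of Fos, was barely measured. Its level was 0.448 to 1.33 CPM in Naive, 0 to 3.27 in Ag and 0.195 to 0.973 in Ag+Costim, with 65, 56 and 41 counts per group, and no difference passed the test on all 15 libraries, although that between Ag+Costim and Ag did without Ag 2 and Ag 5 (-1.54, FDR = 0.0390). Fosl2, which encodes FRA2, a FOS protein without the strong activation domain of FOS, had 4.03, 3.71, 8.50, 2.36 and 6.91 CPM in Naive. It had 7.23, 2.27, 5.44, 7.88 and 3.26 CPM in Ag and 2.32, 3.49, 2.67, 2.98 and 2.50 CPM in Ag+Costim. The Ag+Costim libraries were close together at the low end and overlapped both other groups. The log2 fold change of Fosl2 was -0.90 in Ag+Costim against Ag (SE 0.38, FDR = 0.153 by edgeR) and -0.87 against Naive (SE 0.38, FDR = 0.0705). Within lane 2 the difference from Ag was -0.87 (FDR = 0.628), while it was called without Ag 2 and Ag 5 (-1.16, FDR = 0.0208) and by voom (-1.34, FDR = 0.00110). Ag 2 and Ag 5 held the lowest Ag levels of both Fosb and Fosl2, so leaving them out raises the Ag mean by itself.

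Of the JUN family, edgeR on all 15 libraries called no member in any comparison, while voom with quality weights called Jun (1.16, FDR = 0.0361) and Jund (-0.64, FDR = 0.0373) in Ag+Costim against Ag. Jun, the founding member and partner of FOS, had 4.80, 5.60, 3.84, 2.71 and 5.58 CPM in Naive and 3.98, 2.03, 4.50, 3.83 and 3.75 CPM in Ag+Costim. In Ag it split, with 6.89 and 6.97 CPM in Ag 2 and Ag 3, 1.29 in both Ag 1 and Ag 4, and 2.75 in Ag 5. Its log2 fold change was -0.26 (95% interval -1.15 to 0.63) in Ag against Naive and -0.06 (-0.95 to 0.84) in Ag+Costim against Ag.

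Junb, a JUN protein that often restrains JUN and is a usual partner of BATF in T cells, had 111, 152, 137, 147 and 116 CPM in Naive, 115, 90.6, 98.2, 132 and 124 in Ag, and 116, 123, 124, 130 and 109 in Ag+Costim. The groups overlapped, and the difference of Ag+Costim from Ag was 0.10 (95% interval -0.14 to 0.35). Junb shares part of its locus with Prdx2 on the opposite strand, which had 34120 counts in all against 26722 for Junb, and the libraries do not keep strand, so reads from the shared stretch cannot be told apart. Jund, the JUN protein found in resting cells, had 94.6, 78.3, 80.6, 72.4 and 114 CPM in Naive, 108, 67.8, 55.5, 97.4 and 56.3 in Ag and 48.0, 79.1, 95.5, 47.5 and 52.2 in Ag+Costim. Only 1 Ag+Costim library was above the Naive median, and the log2 fold change was -0.45 (SE 0.24, edgeR FDR = 0.134). Within lane 3 it was -0.82 (FDR = 0.0285), a call that rests on Ag+Costim 4 and 5, the 2 libraries of their group in that lane.

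Batf was higher after antigen, with or without costimulation. Naive libraries held 50.5, 72.8, 45.6, 48.6 and 100 CPM, and Ag libraries 80.4, 163, 103, 89.1 and 183 CPM. The 5 Ag libraries were all above the Naive median, but Ag 1 and Ag 4 were below Naive 5. Ag+Costim libraries held 138, 144, 151, 164 and 142 CPM, above every Naive library and within a far narrower range than Ag, with a coefficient of variation of 6.73% against 37.5%. Batf rose by 0.96 on the log2 scale in Ag against Naive (1.95-fold, SE 0.26, edgeR FDR = 0.0387) and by 1.22 in Ag+Costim against Naive (2.33-fold, SE 0.26, FDR = 0.00570). The difference between Ag+Costim and Ag was 0.26 with a 95% interval of -0.24 to 0.75 (FDR = 0.524), an interval that holds both a small fall and a rise. The highest Ag values were those of Ag 2 and Ag 5, the libraries of lowest input, and without both the difference of Ag from Naive was 0.46 (FDR = 0.204) and that of Ag+Costim from Ag 0.90 (FDR = 0.00526). Leaving out the highest Ag values lowers the Ag mean by itself, and this fit was chosen after seeing the data. The part of input in the level of Batf was not tested. The call in Ag was kept when Ag 1, Ag 3, Ag 4 or Naive 5 was left out and lost when any other single library was, with values no lower than 0.77 and FDR up to 0.118 in those fits. The rise over Naive was 1.28 within lane 3 (FDR = 0.0271). No lane held both Ag and Naive, and with the lane as a term the difference of Ag from Naive was 1.04 (FDR = 0.626).

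Irf4 and Irf8, the factors that join BATF on composite elements, were both higher in Ag+Costim than in Naive, by 1.57 (SE 0.60, edgeR FDR = 0.0467) and 1.94 (SE 0.54, FDR = 0.0158). Irf4 had 25.9 to 37.4 CPM in Ag+Costim and 9.99 to 23.3 in Ag, and these ranges did not overlap, but the fold change of 0.72 was not called (SE 0.59, FDR = 0.441). Between Ag and Naive edgeR on all 15 libraries and DESeq2 called neither, but without Ag 3 and Naive 5 edgeR called both higher there, and voom called both higher in each comparison. With the lane as a term neither was called in either comparison. Of both genes, the highest Naive level was in Naive 5 (34.2 and 40.8 CPM), the library with the highest myeloid marker sum and the highest Naive Batf. Myeloid and B cells also make IRF8, and the part of other cells in these levels was not tested.

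Among NFAT genes, edgeR on all 15 libraries called Nfatc3 lower in Ag+Costim than in Naive and called neither Nfatc1 nor Nfatc2. Nfatc3, an NFAT gene known for its high expression in developing thymocytes, had 284, 242, 304, 250 and 356 CPM in Naive. It had 256, 170, 192, 285 and 138 CPM in Ag and 183, 198, 206, 192 and 213 CPM in Ag+Costim. All Ag+Costim libraries lay below all Naive libraries, while 3 of the 5 Ag libraries did and Ag 1 and Ag 4 did not. Nfatc3 fell by 0.53 on the log2 scale in Ag+Costim against Naive (SE 0.18, 95% interval -0.88 to -0.19, edgeR FDR = 0.0282). In Ag against Naive the value was -0.46 (SE 0.18, FDR = 0.112), and between Ag+Costim and Ag it was -0.07 (-0.42 to 0.28). The fall was -0.50 both within lane 3 and with the lane as a term (FDR = 0.0728 and 0.142), so its size held and the call did not. Leaving out single libraries gave -0.60 to -0.43, and the call was lost without Ag 2, Naive 1, 3 or 5, or Ag+Costim 1, 2, 3 or 4 (FDR up to 0.137).

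Nfatc1, which is known to induce its own short isoform in activated lymphocytes, had 199, 183, 252, 204 and 284 CPM in Naive. It had 322, 205, 218, 421 and 177 CPM in Ag and 239, 251, 278, 251 and 287 CPM in Ag+Costim, and the groups overlapped. The log2 fold change was 0.26 (SE 0.21, edgeR FDR = 0.403) in Ag and 0.22 (SE 0.21, FDR = 0.392) in Ag+Costim, both against Naive. By voom with quality weights Nfatc1 was called in all 3 comparisons, at 0.69 in Ag and 0.33 in Ag+Costim against Naive (FDR = 0.00441 and 0.0140) and at -0.37 in Ag+Costim against Ag (FDR = 0.0263). Nfatc2, whose protein is the main NFAT of resting peripheral T cells, had 54.7, 38.9, 54.8, 50.8 and 103 CPM in Naive, with Naive 5 far above the rest. It had 51.5, 51.7, 61.6, 59.1 and 27.5 CPM in Ag and 57.2, 57.6, 53.5, 62.9 and 66.1 CPM in Ag+Costim. Its fold change of -0.02 between Ag+Costim and Naive (-0.50 to 0.45) would be 0.27 without Naive 5.

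The Ag libraries differed among themselves in the same way for several members. Ag 1 and Ag 4 were the highest Ag libraries for Fosl2, Jund, Nfatc1 and Nfatc3, whereas Ag 2 and Ag 5 were the highest for Batf and the libraries without Fos counts. The genes share these libraries, so this is 1 pattern of libraries and not a set of separate findings. The spread of Ag exceeded that of Ag+Costim for all 3 NFAT genes, with coefficients of variation of 37.8% against 7.75% for Nfatc1, 26.8% against 8.41% for Nfatc2 and 29.2% against 5.83% for Nfatc3.

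The make-up of each family, which compares genes per kilobase within a library and so does not depend on library scaling, was described without a test. Nfatc1 was 47.5% to 52.1% of the NFAT level (CPM per kb of the 3 genes) in Naive, with a mean of 49.9% ± 1.84 (SD, n = 5). It was 60.9% ± 3.36 in Ag (56.8% to 65.4%) and 60.8% ± 0.916 in Ag+Costim (60.0% to 62.2%). The ranges of Ag and Ag+Costim thus lay above that of Naive, although the level of Nfatc1 itself overlapped between groups. Nfatc3 was 40.9% ± 1.81 in Naive against 30.7% ± 1.45 in Ag and 29.4% ± 0.502 in Ag+Costim, and its highest share after antigen (31.9%) was below its lowest Naive share (38.9%). Nfatc2 stayed at 6.47% to 12.4% in all libraries. Other length scales and the deposited FPKM moved the mean share of Nfatc3 in Naive to between 45.2% and 46.5% and that of Nfatc1 to between 44.3% and 48.4%, and under each of them the shares of Nfatc1 and Nfatc3 after antigen did not overlap those in Naive.

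In the FOS family, Fos was 74.9% ± 13.1 of the level in Naive (58.4% to 89.6%), 29.1% ± 27.6 in Ag and 26.9% ± 18.9 in Ag+Costim, where its highest share was 42.7%. Fosl2 took the largest mean share after antigen, 56.5% ± 31.1 in Ag and 57.1% ± 21.8 in Ag+Costim, against 20.2% ± 11.6 in Naive. These shares rest on the low counts given above, and the share of Fosl2 was 100% in Ag 5 because neither Fos nor Fosb had a count there. The JUN family was split between Junb and Jund in all groups, with Junb at 51.7% ± 7.63 in Naive against 51.2% ± 6.71 in Ag and 57.6% ± 7.23 in Ag+Costim, and Jun did not exceed 2.80% in any library.

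**Figure D3:**
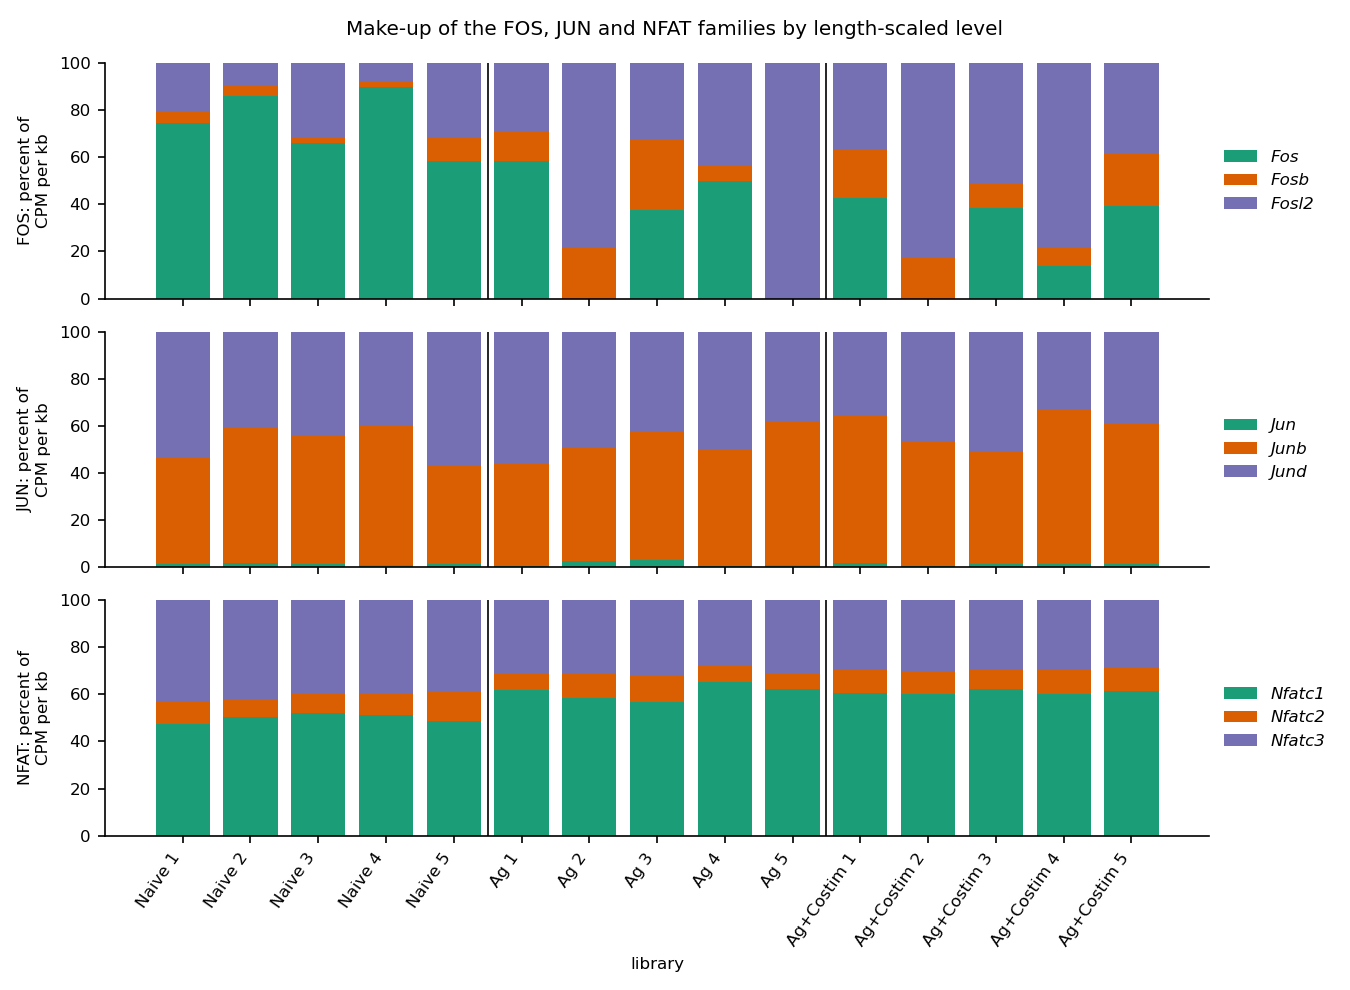
Share of each gene in the summed CPM per kb of its family (y axis, percent) in each of the 15 libraries (x axis), for FOS, JUN and NFAT genes. Black lines separate the groups. Nfatc1 (green, bottom panel) takes 47.5% to 52.1% in Naive and 56.8% to 65.4% in Ag.

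Transcripts were compared next, since Nfatc1 is known to use different promoters and poly(A) sites. Of the 10 genes, Batf, Nfatc1, Nfatc2 and Nfatc3 had at least 2 tested transcripts, and edgeR's test of transcript usage called 0 of these 4 in any comparison. It called 0.640%, 0.947% and 1.23% of 7501 genes in Ag against Naive, Ag+Costim against Ag and Ag+Costim against Naive. Unadjusted gene p-values under 0.05 were found for Nfatc1 only, 0.00666 in Ag and 0.0118 in Ag+Costim against Naive, with FDR = 0.214 and 0.169. By limma's diffSplice, 0 of the genes were called in the comparisons with Ag and Nfatc2 was called in Ag+Costim against Naive.

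Nfatc1-206, an annotated Nfatc1 transcript that starts at the outer promoter and ends at the short 3′ end, had the lowest transcript p. It made up 3.67%, 3.02%, 0.754%, 1.88% and 2.51% of Nfatc1 counts in Naive libraries. The shares were 9.56%, 17.5%, 14.5%, 20.9% and 6.44% in Ag and 33.7%, 15.8%, 4.38%, 6.69% and 8.37% in Ag+Costim, so every library after antigen was above every Naive library. The transcript was picked by its p in these same libraries, so this gap is no separate support. How many of all transcripts have such a gap was not counted. The 95% Wilson interval covers counting error only. In Naive it was 0.574% to 0.990% for the lowest share (51 of 6764 counts) and 3.07% to 4.39% for the highest. In Ag+Costim it was 3.78% to 5.06% for the lowest share and 32.2% to 35.3% for the highest (1218 of 3614). The libraries of each of these groups thus differed by more than counting error. The edgeR test of Nfatc1-206 over all transcripts gave FDR = 0.142 in Ag and 0.120 in Ag+Costim, each against Naive. Fitted on only the 10 libraries of Ag+Costim and Naive, the FDR was 0.0222, while the same kind of fit on Ag and Naive did not call the transcript. With replicate number as a term, the FDR against Naive was 0.236 in Ag+Costim and 0.388 in Ag. Leaving out single libraries gave 0.0466 (without Ag 3) to 0.394 (without Ag+Costim 1) in Ag+Costim. For Ag these fits gave 0.0493 (without Ag 3) to 0.384 (without Naive 3).

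After these values were seen, the transcripts of Nfatc1, which lies on the minus strand of chromosome 18, were grouped by start and end and described without a test. The outer starts lie 4593 to 4898 bases upstream of the inner start, and the short 3′ end comes 41230 bases before the long one. Transcripts with the short end held 32.1% ± 7.27 (SD, n = 5) of Nfatc1 counts in Naive against 46.4% ± 4.94 in Ag and 47.1% ± 2.51 in Ag+Costim. Naive 5, at 44.7%, was the single Naive library inside the range of Ag, which was 41.8% to 54.5%. Transcripts with the outer start held 24.9% ± 12.9 in Naive against 41.1% ± 17.7 in Ag and 34.7% ± 14.3 in Ag+Costim, and these groups overlapped widely. Single reads of 50 bases seldom span the exons that set these transcripts apart, so the shares depend on how the authors' assembler divided shared reads.

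**Figure D4:**
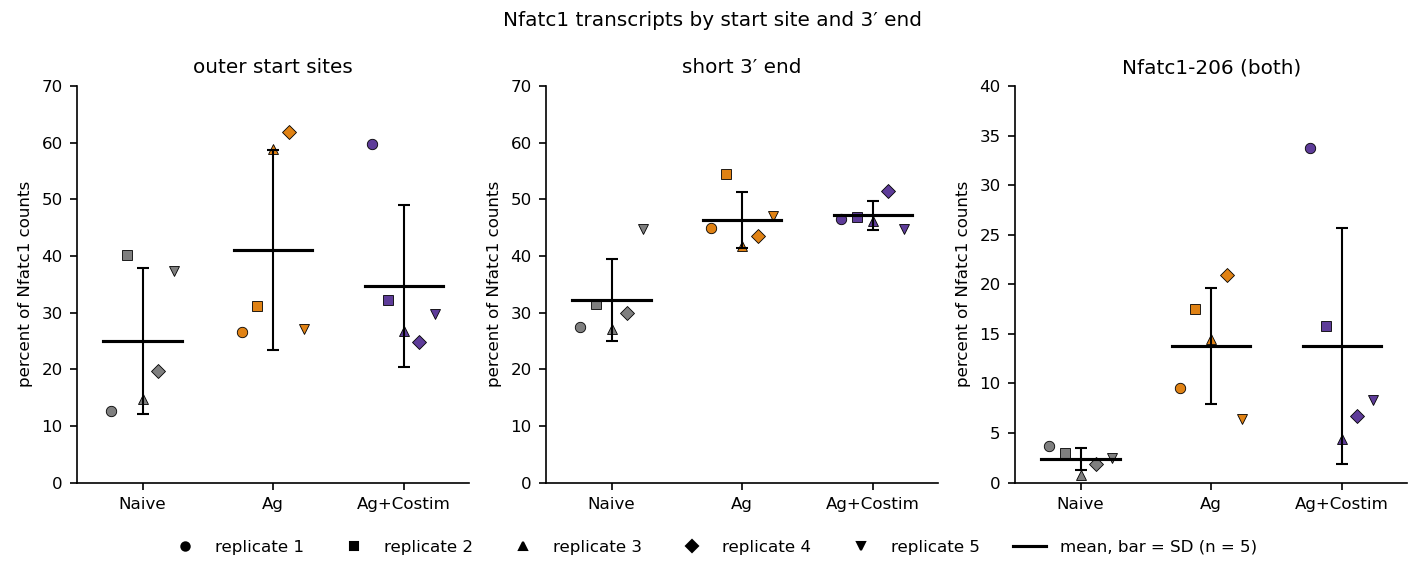
Percent of Nfatc1 counts (y axis) assigned to transcripts with the outer start sites, with the short 3′ end, and to Nfatc1-206, which has both, by group (x axis). Points are libraries, and lines and bars are the mean and SD; the right panel has its own scale. Nfatc1-206, picked for its low p in these libraries, is at most 3.67% in Naive and at least 4.38% after antigen.

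Transcripts annotated as retaining an intron held a small part of the summed counts of the 10 members, 2.92% ± 1.73 in Naive against 1.94% ± 0.947 in Ag and 0.966% ± 0.338 in Ag+Costim. Over all genes the figures were 6.35%, 4.49% and 3.15%, so the sum of the members followed the order of the whole library. Single members differed, and the share was large for FOS genes with few counts. For Fosb it was 41.2% ± 14.0, 35.2% ± 20.4 and 46.8% ± 31.6, with no fall. For Fosl2 it was 30.2% ± 39.7, 26.5% ± 41.3 and 7.35% ± 4.27, with 100% in a library of Naive and of Ag. For Batf the share was 5.65% ± 3.84, 2.42% ± 2.09 and 1.19% ± 0.479.

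The machinery around the members was described from lists of genes, 89 entries tested in 11 lists (Dusp1 is in both the phosphatase and the immediate early list). Between Ag+Costim and Ag edgeR called 0 of these entries and 0.0346% of all genes. By edgeR, 19 entries had an unadjusted p under 0.05, as did 4647 of the 17366 genes tested. DESeq2 called 10 entries and 14.6% of all genes, and voom with quality weights called 64 entries and 64.5% of all genes. Of all genes, edgeR called 6.71% in Ag against Naive and 44.7% in Ag+Costim against Naive, in either direction, and the counts of the lists are read beside these shares. With the lane as a term, edgeR called 0 genes of each list in Ag against Naive, and in Ag+Costim against Naive at most 1 of each list except the immediate early and stress genes. Without scaling factors the median of all genes in Ag+Costim against Naive moved from -0.08 to -0.23, and list medians moved with it.

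Of 9 other AP-1 and related zipper factors tested, 0 were called higher and 4 lower in Ag+Costim against Naive, a share close to that of all genes, and the list median was -0.31 beside -0.08 for all genes. Bach2, a repressor that competes with AP-1 for its sites and holds CD8+ T cells in a naive or memory state, fell by 2.83 (SE 0.48, edgeR FDR = 0.00237), from 57.5 ± 21.8 CPM to 8.09 ± 3.12. Its relative Bach1 (-1.89, FDR = 0.00398) and the ATF2 relative Atf7 (-1.37, FDR = 0.0152) were lower as well. Between Ag and Naive only Mafk, a small MAF partner of BACH proteins, was called (-0.67, FDR = 0.0311). Bach2 was at 26.0 ± 15.8 CPM in Ag, and its change of -1.68 from Ag to Ag+Costim was not called (FDR = 0.0807). Nfat5, the NFAT relative that answers osmotic stress and does not need calcineurin, was the single tested gene of its list and was not called in any comparison (-0.95 in Ag+Costim against Naive, FDR = 0.0698 by edgeR, called lower by DESeq2).

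Calcineurin and its regulators were called about as often as all genes. Of 11 tested, 4 rose and 1 fell in Ag+Costim against Naive, with a list median of 0.09 that was -0.06 without scaling factors, where 4 still rose and 1 fell. Among them, Calm3 rose by 1.25 (FDR = 0.0117) and Fkbp1a by 0.94 (FDR = 0.00460). Calm3 encodes calmodulin, which activates calcineurin among many other enzymes, and Fkbp1a encodes FKBP12, known for inhibiting calcineurin when the drug FK506 is bound. Calm2, also calmodulin, rose, and Ppp3cc, a catalytic subunit, fell by 0.51 (FDR = 0.0324). Both are named here after their values were seen. In Ag against Naive, 1 was higher, Fkbp1a (0.73, FDR = 0.0355), and 0 were lower, while with library totals over all genes as the scale 0 were higher and 1 lower.

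Kinases that rephosphorylate NFAT, together with cytoplasmic retention factors, gave 0 higher and 3 lower of 10 tested in Ag+Costim against Naive. They were Dyrk2 (-1.96, FDR = 0.00452), Csnk1e, a casein kinase (-1.41, FDR = 0.000500), and Dyrk1a (-0.68, FDR = 0.0228). Csnk1e was also the one called in Ag against Naive (-1.28, FDR = 0.00274), where its groups did not overlap. The list medians were -0.65 and -0.23 in these comparisons, on the lower side of all genes.

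MAP kinases, which drive FOS and JUN activity, went both ways. Of 12 tested, 2 rose and 2 fell in Ag+Costim against Naive. Map2k3 rose by 1.23 (FDR = 0.0177), Map3k1 fell by 0.74 (FDR = 0.0306) and Mapk14, which encodes p38 alpha, fell by 0.44 (FDR = 0.0235). In Ag, Mapk14 was the one called, at -0.52 (FDR = 0.0391). Of 8 phosphatases that switch these kinases off, 1 rose and 2 fell: Dusp4 rose by 1.72 (FDR = 0.0383), and Dusp7 (-1.03, FDR = 0.0214) and Dusp10 (-0.71, FDR = 0.0153) fell. Dusp1 was the one lower in Ag (-0.63, FDR = 0.0439).

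SRF and its ternary complex and MRTF partners, which act on the Fos promoter, gave 0 higher and 3 lower of 6 tested in Ag+Costim against Naive. They were Mrtfa (-1.02, FDR = 0.00556), Elk4 (-0.93, FDR = 0.0117) and Elk1 (-0.58, FDR = 0.0259). In Ag against Naive, Mrtfa alone was lower (-0.87, FDR = 0.0298). Of 5 genes for JUN turnover and coactivation, Cops5, which encodes the coactivator JAB1, rose by 0.85 (FDR = 0.0208), while the ubiquitin ligases Cop1 (-1.08, FDR = 0.0204) and Itch (-0.80, FDR = 0.0163) fell. In Ag, edgeR called 0 of these 5, with 1 at an unadjusted p under 0.05 (Itch, -0.73, FDR = 0.0667) and 1 called by DESeq2.

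Genes known as targets of NFAT and AP-1 split. Of 10 tested, 4 were higher and 3 lower in Ag+Costim against Naive. The lower ones were Egr3 (-3.08, FDR = 0.0102), Cd40lg, the CD40 ligand (-2.62, FDR = 0.00819), and Cd69, an early activation marker (-2.18, FDR = 0.00235). The 4 that rose, by 1.19 to 2.18, were Ctla4, Il2ra, Ifng and Fasl, named after their values were seen. In Ag against Naive, Ctla4 (2.83, FDR = 0.0379) and Ifng (1.98, FDR = 0.0222) were higher and Cd69 was lower (-1.63, FDR = 0.0188). Lower Cd69 and higher Ctla4 were thus found after antigen in both groups.

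Of 15 immediate early and stress genes tested, 0 were higher and 6 lower in Ag against Naive, beside 6.71% of all genes called in either direction. In Ag+Costim against Naive 2 were higher and 9 lower, beside 44.7% of all genes. The medians of this list were -0.75 and -0.91. Without Ag 3 and Naive 5, 7 were lower in Ag and 9 in Ag+Costim, without Ag 2 and Ag 5 the counts were 4 and 8, and with the lane as a term they were 0 and 5. They included, in Ag+Costim against Naive, Egr1 (-2.41, FDR = 0.00881), Zfp36, which destabilises cytokine mRNA (-1.75, FDR = 0.00128), and Nr4a1, a reporter of receptor signalling (-1.47, FDR = 0.0172). In Ag, Zfp36 and Ppp1r15a (-1.34 each, FDR = 0.0106 and 0.0152) and Klf6 (-0.92, FDR = 0.0106) fell. The 2 that rose were the heat shock genes Hspa1b and Hsph1, named after their values were seen. The list summed to 1248 to 1651 CPM in Naive, 850 to 1248 in Ag and 904 to 1050 in Ag+Costim. Such genes also respond to cell handling within minutes, Naive cells were prepared without transfer, and the part of handling was not tested.

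**Figure D5:**
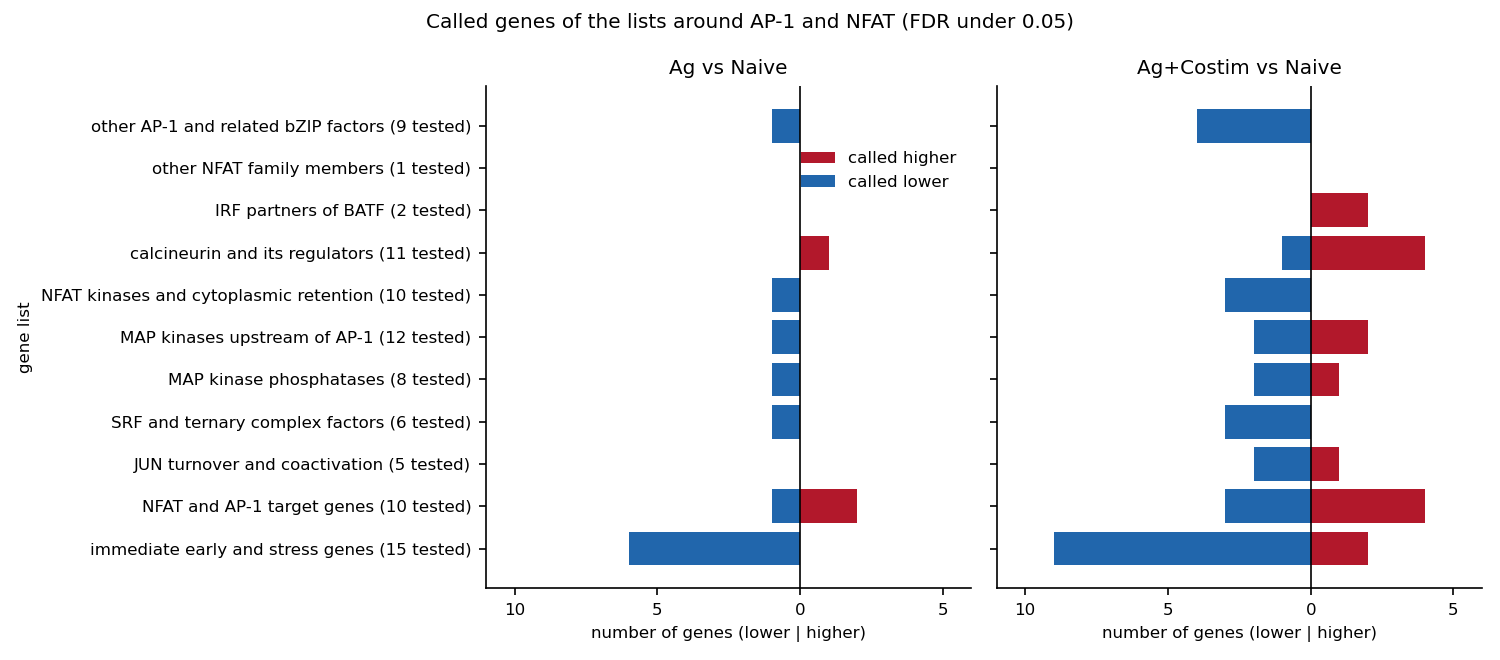
Number of genes called lower (blue, left of 0) or higher (red, right of 0) by edgeR at an FDR under 0.05 (x axis) in each of 11 gene lists around AP-1 and NFAT (y axis, with the number tested), for Ag and Ag+Costim against Naive. Immediate early and stress genes have the most lower calls, 6 and 9 of 15, beside 6.71% and 44.7% of all genes called in either direction.

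The genes whose profile over the 15 libraries was most like a member's were found by the root mean square difference of standardised log2(CPM + 2) values, a description with no test. For Fos they were Rpgrip1 (0.299), Kantr (0.318) and Plekha1 (0.328) among 11341 genes. For Batf they were AI662270 (0.105), Naa20 (0.111) and Stard3nl (0.142) among 11340. For Nfatc1 they were Itgal (0.347), Otud7b (0.371) and Rnf19a (0.422), and for Jun Gtpbp10 (0.590), Ercc8 (0.599) and Cdr2 (0.611), so Batf had the closest and Jun the least close neighbours of the 4.

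Markers of other cells moved with some comparisons. Of all genes, edgeR called 6.71% in Ag against Naive and 44.7% in Ag+Costim against Naive. Of 6 tested B cell markers, 3 were higher in Ag against Naive (among them Cd79a and Ms4a1, by 4.78 and 5.04) and 0 in Ag+Costim against Naive (2 at an unadjusted p under 0.05, 0 by DESeq2). Ighm, at 475 to 1165 CPM in every library, made up most of the B cell sum. Of 9 myeloid markers, 1 rose in Ag (Cd68, 1.73), while in Ag+Costim against Naive Cd68 rose by 1.71 and S100a8 (-4.31) and S100a9 (-4.74) fell. Naive medians of S100a8 and S100a9 were only 8.41 and 7.50 CPM, with highest Naive values of 433 and 406. Their Ag+Costim medians were 2.92 and 1.95 CPM. Erythroid markers (5 tested) and CD4+ T cell markers (2 tested) were called by edgeR in no comparison, although 5 of the erythroid genes had an unadjusted p under 0.05 in Ag+Costim against each other group, lower in Ag+Costim, and DESeq2 called 5 and 4 of them. In Ag+Costim against Ag, edgeR called 0 genes in each of the 5 marker lists (0.0346% of all genes), and DESeq2 called 3 B cell, 5 erythroid and 1 CD8+ T cell markers lower (14.6% of all genes in either direction). Of 6 CD8+ T cell markers, 0 passed in Ag against Naive (1 at an unadjusted p under 0.05, 1 by DESeq2), and Cd8b1 (-0.72), Cd3g (-0.61) and Cd8a (-0.54) fell in Ag+Costim against Naive. Without Ag 3 and Naive 5, the libraries with the highest erythroid and myeloid sums, Batf was still called against Naive in Ag (1.31, FDR = 0.00379) and in Ag+Costim (1.54, FDR = 0.000522), Fos was called in Ag+Costim (-3.76, FDR = 0.0114), and Nfatc3 was not (-0.36, FDR = 0.120). The part of other cells in the members' levels was not tested.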

How the data were processed

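CD8+ T cells were profiled in 15 libraries, 5 in each of 3 groups taken from the labels, with a cDNA kit for low input that keeps no strand and single reads of 50 bases. The submitters' processing notes name HISAT2 2.1.0, SAMtools 1.9, StringTie 2.1.0, R 4.0.5 and DESeq2 1.30.1 with the mm10 build, in the role the methods give the first 3: alignment, sorting and quantification. The deposited gene and transcript counts are StringTie's estimates written by the authors as whole numbers, not normalised. The deposited FPKM values, per transcript and filtered by the authors, were used for family shares only, for the 7 members present and 13 libraries, because the columns of Ag 1 and Naive 5 were identical. The deposited table of sequencing quality gives percent of reads aligned, lane and input amount per library, and the authors' sample sheet the recorded sex. In the gene table, 55536 of 81881 entries matched GENCODE M21 on GRCm38, and 26248 entries named by a number alone, 0.0818% of counts, were left out.

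Genes were kept by filterByExpr and tested with edgeR 4.0.16 in R 4.3.3: TMM factors (0.888 to 1.12), a robust quasi-likelihood fit to all 15 libraries with a coefficient per group (common biological coefficient of variation 0.431), and Benjamini-Hochberg adjustment over all genes tested, with calls at an FDR under 0.05. Transcript usage was tested with diffSpliceDGE and called at a gene FDR and a transcript FDR under 0.05 with a share change of at least 10 percentage points. The steps were tested on simulated counts. Alternatives used DESeq2 1.42.0 and limma 3.58.1 (voom with quality weights, diffSplice), other scalings and filters, lane, sex or replicate number as a term, single lanes, and fits without single libraries. Family shares divide CPM by the kilobases of the union of annotated exons. Named genes were the members, in each list up to 3 called genes with the largest fold change and at least 5 CPM in the higher group, or the gene with the lowest p where none was called, and the 3 most similar profiles of 4 members; others are marked in the text. Values of some genes that this rule or a count would name are not reported here. Members and lists were chosen with earlier results of these data known, and no list is independent evidence. Nothing in the labels says whether each library is a separate animal, but the paper describes its 5 samples per group as individual biological replicates. The p-values measure the spread between libraries, which can also hold technical variation. The Wilson intervals and the floors cover counting error only, and reads carry no molecular identifiers. The intervals of fold changes come from the edgeR standard error, which includes the spread between libraries. The methods also describe other sequencing runs, not analysed here.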

Additional observations from a re-analysis of the deposited data

Results flagged for a closer look

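Nfatc2 in Naive stood out by 1 library. Naive 5 held 103 CPM of Nfatc2, while Naive 1 to 4 held 38.9 to 54.8 CPM, and the gap to the nearest library was 0.752 of the whole range, above Dixon's critical value for 5 samples. Of 30 sets of 5 values examined, 1 for each member and group, this was the single one past that value, and chance alone passes about 1 in 20. Naive 5 was also the highest Naive library for Batf, Nfatc1, Nfatc3 and Jund, and its 9 myeloid markers summed to 1041 CPM against at most 192 in the other Naive libraries. Whether the level of Nfatc2 came from other cells was not tested.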

How the results depend on the processing

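Batf was called in Ag+Costim against Naive in 29 of 29 alternatives (log2 fold change 1.08 to 1.54) and Fos in 27 of 28 (-4.10 to -3.39), whereas Nfatc3 was called in 15 of 29 (-0.68 to -0.36) and Batf in Ag against Naive in 13 of 28 (0.46 to 1.31, FDR 0.00182 to 0.626), with the sign kept in each. Of 851 recomputed member fold changes, 755 kept direction and call, 17 gained a call, 30 lost one and 49 changed sign, all of the last for values not called in the fits of the report. Where a value moved, the cause was not tested. In Ag against Naive, where the report has 1 member called, 0 were called without a filter, on only the 10 libraries of the comparison, with the lane as a term and without Ag replicates 2 and 5, and 2 with voom (Batf and Nfatc1); leaving out single libraries gave 0 to 2, the 2 being Batf and Nfatc3 without Ag 4. In Ag+Costim against Ag, where it has 0, voom with quality weights called 7 and 64.5% of all genes (its weights were lowest for Ag 5, 0.0793, and Ag 2, 0.122), and the fit without Ag replicates 2 and 5 called 4 (Fos, Fosb, Fosl2 and Batf) and 50.5% of all genes, while single libraries left out gave 0 throughout. In Ag+Costim against Naive 1 member (Batf) was called with the lane as a term, and 2 to 3 without single libraries. Over all genes the count of 1165 in Ag against Naive became 208 without a filter, 6 on the 10 libraries, 0 with the lane, 2778 by DESeq2, 4039 by voom and 3945 without Ag 3 and Naive 5, that of 6 in Ag+Costim against Ag became 2533 by DESeq2, 11205 by voom, 9751 without Ag 2 and Ag 5, 989 without Ag 3 and Naive 5 and 0 to 33 in the other settings, and that of 7755 in Ag+Costim against Naive became 4158 without a filter, 13527 by voom and 943 with the lane. Without single libraries these counts ranged from 255 (Naive 1) to 3871 (Naive 5), 0 to 3573 (Ag 5, with 2679 without Ag 2) and 3892 (Naive 4) to 9252 (Ag 5). Changed transcript usage in Ag+Costim against Naive was called for 1 member by limma's diffSplice (Nfatc2) and 1 on only the 10 libraries (Nfatc1), and for 0 members without any single library.

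The values that changed sign in Ag against Naive were those of Fosl2 (0.02 in the report), at -0.11 without a filter, -0.02 with the lane and -0.00 both without scaling factors and with library totals over all genes, with -0.18 to 0.29 over single libraries left out; of Fosb, -0.04 without Ag 3 (-0.04 to 0.91 over single libraries); of Jund, 0.21 with voom and 0.08 without Ag 3 and Naive 5 (-0.35 to -0.08); and of Nfatc2, 0.05 with voom and 0.02 without Naive 5 (-0.40 to 0.02). In Ag+Costim against Ag they were those of Jun, at 0.30 without a filter, 1.16 with voom, 0.18 with the replicate block, 0.27 without Ag 3 and Naive 5, 0.06 with library totals and 0.59 without Ag 2 and Ag 5 (-0.28 to 0.50 over single libraries); of Junb, -0.01 with voom; of Nfatc1, 0.20 without a filter and 0.03 with library totals (-0.15 to 0.19); and of Nfatc3, 0.19 and 0.01 under the same settings (-0.18 to 0.08). In Ag+Costim against Naive they were those of Fosb, 0.01 with voom, of Junb, 0.03 without a filter, and of Nfatc2 (-0.02 in the report), at 0.14 without a filter, 0.18 with voom, 0.10 with the lane, within 1 lane and without Ag 2 and Ag 5, 0.01 with the replicate block, 0.33 without Ag 3 and Naive 5 and 0.03 with library totals (-0.16 to 0.27). Fits by library totals over all genes, by each transcript's own length and without Ag 2 and Ag 5 were chosen after seeing the data.

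Shares within families moved with the length scale. By the longest transcript, Nfatc1 was 45.2% of NFAT in Naive and 56.5% in both Ag and Ag+Costim, and Nfatc3 46.5%, 35.8% and 34.5%. With each transcript by its own length, Nfatc1 was 44.3%, 55.8% and 56.2% and Nfatc3 46.3%, 35.6% and 34.4%. By the deposited FPKM, Nfatc1 was 57.8% in Ag+Costim, Nfatc3 45.2%, 34.5% and 33.7%, and Junb 60.0% and 59.1% of JUN in Naive and Ag. Single libraries left out moved the mean share of Nfatc1 by little (49.4% to 50.5% in Naive, 59.8% to 62.0% in Ag) and that of Fos in Ag from 21.9% to 36.4%. The groups share replicate numbers, but deviations of libraries with the same number correlated at -0.38 to 0.62 and not every library correlated best with its own number, so the numbers were not taken as pairs. With the replicate block the members called were 1, 0 and 3 in the 3 comparisons (Batf in Ag at 0.95, FDR = 0.0221), and 1660, 0 and 7833 genes were called in all. Depth limits the genes with few reads, such as Fosb, with 41 to 65 counts in a group, and Fos, with 28 to 420.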
